A study of Homo sapiens with 17 samples.

Results

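The KLHL, FBXO, FBXW and FBXL genes encode the adaptors that pick substrates for the cullin-RING ubiquitin ligases. They were taken by symbol: every gene of the 1 h table whose name is KLHL, FBXO, FBXW or FBXL followed by a number. This gave 95 genes of 19222, of which 34 were KLHL, 34 FBXO, 9 FBXW and 18 FBXL genes. The cells were HEK-293T, an established line from human embryonic kidney, and the drug was emetine, a plant alkaloid that stops elongating ribosomes from moving along mRNA. Wild-type cells received 500 µM s4U, a uridine analog that marks RNA made during the incubation, for 1 h, either alone (3 libraries) or together with 1.8 µM emetine (3 libraries). A single pair of libraries, with and without emetine, came from cells given no s4U. In a 2 h experiment with 250 µM s4U on the labels, 3 untreated libraries stood beside 3 with 1.8 µM and 3 with 240 µM emetine. No label says that replicates were separate cultures, so the p-values below measure only the spread between these libraries.

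A cullin-RING ligase is built on a cullin that carries a RING protein and the ubiquitin-charged E2 enzyme at one end and an exchangeable substrate adaptor at the other. F-box proteins join CUL1 through SKP1 in the SCF ligase, and are sorted by the domain that binds the substrate: WD40 repeats (FBXW), leucine-rich repeats (FBXL) or other domains (FBXO). KLHL proteins join CUL3 through a BTB domain and bind substrates through a Kelch propeller. Because the adaptors compete for a shared pool of cullins, and many degrade regulators of the cell cycle, transcription and metabolism, the amount of each adaptor helps to set which substrates are destroyed.

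TL-seq reads out s4U as T-to-C changes. The fraction new is the share of a gene's reads made during the hour, estimated from these changes with a mixture model. A change in it was tested on the logit scale (the natural log of the odds). Levels are given in CPM, read counts scaled to a common library size, after TMM scaling. Labeled reads (made during the hour) are CPM times the fraction new, and unlabeled reads (older) are the rest. Both are thus estimates, and single reads were not sorted. Reads given to genes numbered between 22246279 and 40018063 in the 6 libraries with s4U, and 23905660 and 31314746 in the untreated and emetine libraries without it. Emetine replicate 3 stood apart: across genes, its log2 deviations from its group mean had an SD of 0.258, against 0.135 and 0.155. Its deviations rose with transcript length (Spearman 0.765 across genes), against -0.692 and -0.688 in the other emetine libraries. Deviations within a group cancel out, so these opposite signs are not independent. Untreated replicate 1 had the lowest median fraction new over all genes, 9.26% against 12.3% and 14.7% in the other untreated libraries, with 10.3%, 10.7% and 11% in the emetine libraries. Of 6 genes taken as marks of HEK-293T cells, all were detected, from PAX2 at 1.80 CPM to VIM at 618 CPM. Of 6 genes taken as marks of other cell types, 5 (HBG1, ALB, COL1A2, PECAM1 and CDH5) were at or below 0.139 CPM. PTPRC was not among the genes counted.

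Of the 95 adaptor genes, 81 had more than 100 counts over the 6 libraries and were tested for level: 26 KLHL, 32 FBXO, 7 FBXW and 16 FBXL genes. At least 100 reads in each library, the requirement for fraction new, were held by 66: 21 KLHL, 25 FBXO, 7 FBXW and 13 FBXL genes. The 14 below the filter on level were FBXL13, FBXL22, FBXO15, FBXO43, FBXW10, FBXW12, KLHL1, KLHL4, KLHL6, KLHL10, KLHL23, KLHL30, KLHL35 and KLHL38. For KLHL23 this count was set by read assignment, since 987 to 2087 reads per library fell on sequence it shares with the read-through gene PHOSPHO2-KLHL23 and were given to neither. In the 6 libraries with s4U, 14 to 52 reads per library were likewise shared by FBXL8 and HSF4, and 36 to 107 by FBXL6 and TMEM249. All 95 genes were found in the GENCODE 44 annotation, FBXL21 and FBXO18 under newer symbols, and FBXL21 is annotated there as a pseudogene.

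In untreated cells the adaptors were mostly mRNAs of low to middle abundance. Per kb of exon, the 81 genes had a median level of 3.57 CPM, against 4.44 CPM for all genes that passed the filter. FBXW5 was the most abundant, with 34.7, 37.7 and 37.6 CPM per kb in the 3 libraries. FBXO7, a gene of familial parkinsonism, had 22 ± 1.17 CPM per kb (SD, n = 3), and FBXL19 had 20.6 ± 1.41, so that these neighbors did not differ beyond their spread. The highest KLHL gene was KLHL12, an adaptor that acts on the COPII coat component SEC31, at 15.2 ± 0.430 CPM per kb. The lowest genes of their families were KLHL32 with 0.118 ± 0.0629, FBXO24 with 0.159 ± 0.0962 and the FBXL21 pseudogene with 0.559 ± 0.190 CPM per kb. FBXW7, the adaptor that degrades cyclin E, MYC and JUN, was the lowest gene of the FBXW family, at 1.30 CPM per kb in each library.

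Adaptor mRNAs with short half-lives were more frequent than among all genes. Half-lives, computed from the fraction new of untreated cells under the assumption of a steady state, had a median of 3.28 h over 66 adaptors and of 5.65 h over 10763 genes. Half-lives under 2 h were found for 19 of the 66 (28.8%), against 14.4% of all genes, and half-lives under 4 h for 41 (62.1%), against 35.3%. The KLHL median was 2.71 h, the FBXO median 3.28 h, the FBXL median 3.83 h and the FBXW median 4.95 h. Untreated replicate 1 gave the longest medians: the adaptor median was 4.12 h there and 2.89 h and 2.68 h in replicates 2 and 3, while the median of all genes was 7.13 h, 5.26 h and 4.36 h. In each of the 3 libraries the adaptor median thus lay below that of all genes.

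**Figure D1:**
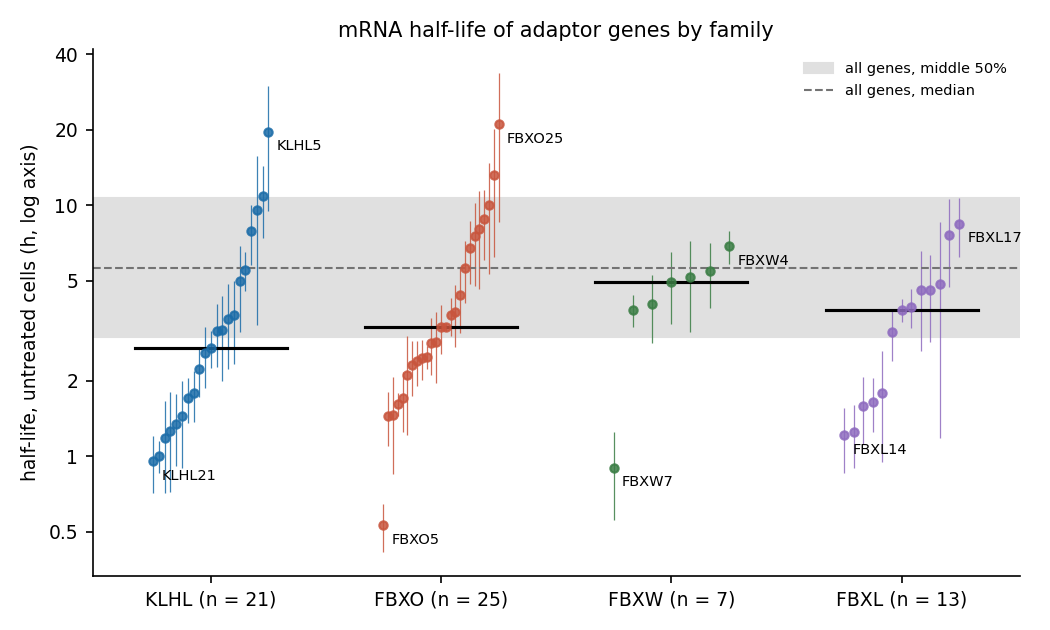
Half-life in untreated cells (h, log axis) of the 66 adaptor genes with enough reads, by family. Points are means of 3 libraries with the SD, black bars are family medians, and the grey band and dashed line give the middle of all genes and their median of 5.65 h. FBXO5 (0.531 h) and FBXW7 (0.901 h) lie below the rest of their families, and FBXO25 (21.1 h) and KLHL5 (19.7 h) lie at the top.

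FBXO5 had the shortest half-life of all adaptors. This gene encodes EMI1, which inhibits the anaphase-promoting complex rather than serving only as an SCF adaptor. Its half-life was 0.664, 0.475 and 0.455 h in the 3 untreated libraries. Next came FBXW7 with 0.901 ± 0.345 h, KLHL21 with 0.956 ± 0.246 h and KLHL26 with 1.00 ± 0.145 h (SD, n = 3), whose values overlapped. KLHL21 is a mitotic adaptor that acts on Aurora B. The shortest FBXL half-life was that of FBXL14, an adaptor for SNAI1, at 1.21 ± 0.352 h. The longest half-life of each family belonged to FBXO25 (35.4, 11.9 and 16.1 h), KLHL5 (31.3, 15.0 and 12.7 h), FBXL17 (8.45 ± 2.2 h) and FBXW4 (6.86 h). At most 5.68% of FBXO25 reads and 5.32% of KLHL5 reads were labeled in an untreated library, and the values of both genes spread widely.

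Adaptors with textbook roles were spread over this range. FBXO32 (atrogin-1, induced in wasting muscle) had a half-life of 2.48 ± 0.263 h. FBXL5, whose protein is stabilized by iron and degrades IRP2, had 1.79 ± 0.842 h. FBXW11 (beta-TrCP2, which acts on beta-catenin and the NF-kappaB inhibitors) had 4.06 ± 1.22 h, and FBXO11, an adaptor for BCL6, had 4.4 ± 1.29 h. Among the KLHL genes, KLHL20 had 1.26 ± 0.545 h and KLHL15, an adaptor for a regulatory subunit of PP2A, had 1.34 ± 0.431 h. KLHL12 had 3.67 ± 1.35 h, KLHL24, known from a skin-blistering disease in which it degrades keratin 14, had 4.99 ± 1.87 h, and KLHL22 had 5.54 ± 1.00 h.

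Half-life went with gene structure. A split at 4 coding exons, chosen after the values were seen, separated 19 adaptors with 1 to 4 coding exons from 47 with more. The 19 had a median half-life of 1.59 h and a range of 0.956 to 3.15 h, against medians of 4.99 h for the 23 adaptors with 5 to 9 coding exons and 3.89 h for the 24 with 10 or more. Over all genes the same classes had medians of 3.34, 6.58 and 6.30 h. Across the 66 adaptors, Spearman's rho between coding exons and half-life was 0.480, 0.484 and 0.489 in the 3 untreated libraries, and over 10416 genes it was 0.185, 0.193 and 0.164. These points share libraries and are genes, not replicates, so the coefficients are descriptions only. The adaptors with few coding exons came from 3 families: 9 KLHL genes with a median of 1.45 h, 5 FBXO genes with 1.62 h and 5 FBXL genes with 1.59 h. Short-lived adaptors outside the class were FBXO5 (5 coding exons), FBXO31 (9), and FBXW7, FBXL5 and KLHL20 (11 each). Half-life had no such relation with GC content at the last position of codons (rho -0.0134), length of the 3′ UTR (-0.0363) or ATTTA motifs per kb of 3′ UTR (0.00797) across the same 66 genes.

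**Figure D2:**
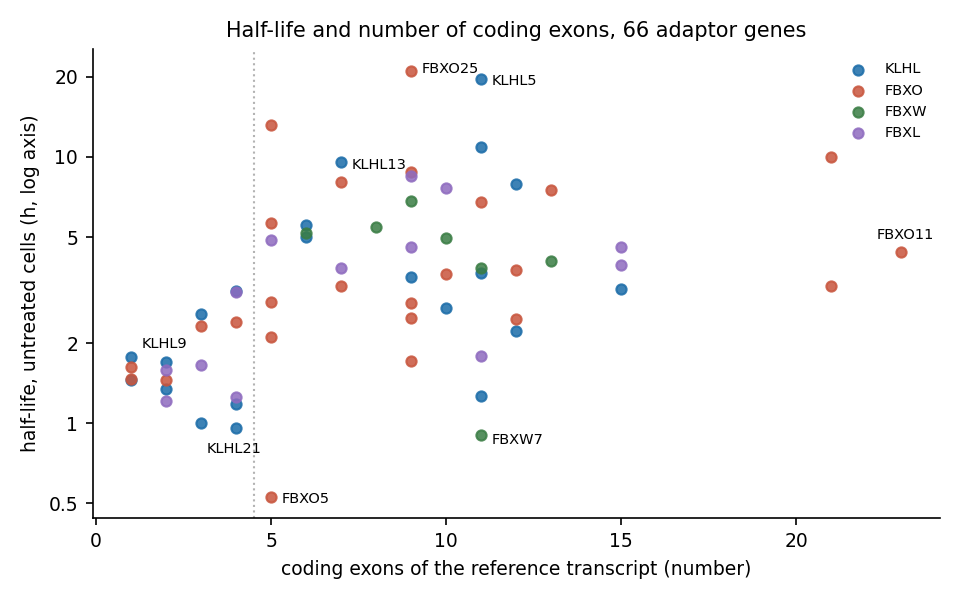
Half-life in untreated cells (h, log axis, mean of 3 libraries) against the number of coding exons in the reference transcript, for 66 adaptor genes colored by family. Left of the dotted line are the 19 genes with 1 to 4 coding exons, which all lie at or below 3.15 h.

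Among the closest pairs of members with half-lives, the KLHL pair did not overlap and the FBXL and FBXW pairs did. By alignment of coding sequences, the closest KLHL pair was KLHL9 and KLHL13 (83.2% identical), which act together in a mitotic CUL3 ligase. KLHL9, with 1 coding exon, had a half-life of 1.78 ± 0.413 h, and KLHL13, with 7, had 9.54 ± 6.22 h. The lowest KLHL13 value (5.36 h) was above the highest KLHL9 value (2.2 h). Only 5 windows of 50 bases were the same in both coding sequences. Windows were taken at every start position and overlap, so neighboring windows can come from a single identical run. The closest FBXL pair, FBXL2 and FBXL20 (68.3%), had 4.59 ± 1.97 h and 3.94 ± 0.710 h, which overlapped. FBXW11 and FBXW8 (48.0%) had 4.06 ± 1.22 h and 3.83 ± 0.548 h, and also overlapped. FBXO44 and FBXO6 (68.8%) are neighbors on chromosome 1 and share 62 such overlapping windows, so reads may be split between them. FBXO6, at 2.90 CPM in untreated cells, had too few reads for a half-life.

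After 1 h of emetine the levels of 2 adaptors rose (edgeR, adjusted p below 0.05). The 2 were FBXO5 and FBXO30, 2.47% of the 81 tested, against 2.64% of all 13776 genes, so the share was near the background. None fell, against 0.0436% of all genes. At an unadjusted p under 0.05, 18 adaptors were higher (22.2%, against 14.9% of all genes) and 1 was lower (1.23%, against 6.95%). In 25 adaptors (30.9%) all 3 emetine libraries lay above all 3 untreated ones, against 19.5% of all genes, and in 2 (2.47%) they lay below, against 15.2%. In bulk libraries, a change in the number of cells that express a gene and in its RNA per cell cannot be told apart. The median log2 fold change was 0.14 over the adaptors and 0.030 over all genes. By family it was 0.21 for KLHL, 0.15 for FBXL, 0.076 for FBXO and -0.022 for FBXW genes. The value was above 0 for 61 of the 81 adaptors (75.3%, against 54.0% of all genes), among them 24 of the 26 KLHL genes. Median transcript length was 4351 bases for the adaptors, 4973.5 for KLHL genes and 3294 for all genes. With a trend on length and GC content removed, the median log2 fold change was 0.033 over the adaptors and -0.047 over all genes. Family medians with the trend removed are not given.

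Emetine replicate 3 bore on these counts. Without it, 10 adaptors were called higher (FBXO5, FBXO30, FBXO34, FBXO38, FBXO42, FBXL5, FBXL6, FBXL12, KLHL25 and KLHL26) and 1 lower, FBXO25, of 80 tested (12.5% and 1.25%), against 10.1% and 3.87% of all genes. DESeq2 on all 6 libraries called 6 higher and the same FBXO25 lower (7.41% and 1.23%, against 5.95% and 1.13% of all genes). Both sets of shares were near the background. FBXO25 had 20.5, 17.6 and 19.6 CPM in untreated cells and 14.7, 15.7 and 14.6 CPM with emetine. The groups did not overlap, the log2 fold change was -0.36 ± 0.11 (SE), and edgeR's adjusted p was 0.135. The next lowest p-values in this direction belonged to FBXL16, FBXO17, FBXL8 and FBXO44, with log2 fold changes of -0.33, -0.17, -0.27 and -0.16 and adjusted p-values of 0.324 to 0.394.

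Newly made reads formed a smaller share of some adaptor mRNAs with emetine. The fraction new fell in 6 of 66 adaptors (limma, adjusted p below 0.05), or 9.09%, against 4.83% of 10763 genes. They were KLHL25, FBXO5, FBXO30, KLHL21, FBXO44 and KLHL26. In 0 adaptors it rose (against 0.214% of all genes), and at an unadjusted p under 0.05 none was higher either (against 1.15%). The estimate was below 0 for 59 adaptors (89.4%, against 75.6% of all genes), among them all 21 KLHL genes. The median fraction new of the 66 was 15.5%, 21.3% and 22.8% in the untreated libraries and 16.3%, 17.2% and 15.6% in the emetine libraries, so that untreated replicate 1 lay below all emetine libraries. The median change in logit was -0.35 for KLHL, -0.41 for FBXL, -0.21 for FBXO and -0.074 for FBXW genes, and -0.16 over all genes. In 19 adaptors (28.8%, against 16.8% of all genes) the groups did not overlap and emetine was the lower. In 1 (1.52%, against 2.19%) emetine was the higher: FBXW4, with 8.37%, 11.2% and 9.71% in untreated cells and 14.8%, 11.6% and 11.4% with emetine. Of the 7 adaptors with an estimate above 0, 3 were FBXW genes (FBXW4, FBXW8 and FBXW11), 2 FBXL genes (FBXL2 and FBXL17) and 2 FBXO genes (FBXO3 and FBXO22), with changes in logit of 0.028 to 0.29. The low fraction new of untreated replicate 1 bears on the count: without that library 34 adaptors were called lower (50.7%, against 23.4% of all genes), without untreated replicate 3 none (against 0.886%), and without any other single library 1 or 2 (against 1.55% to 1.9%). KLHL25 was called in 5 of the 6 fits that left out 1 library, FBXO5 and FBXO44 in 2 each, and FBXO30, KLHL21 and KLHL26 in 1 each.

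**Figure D3:**
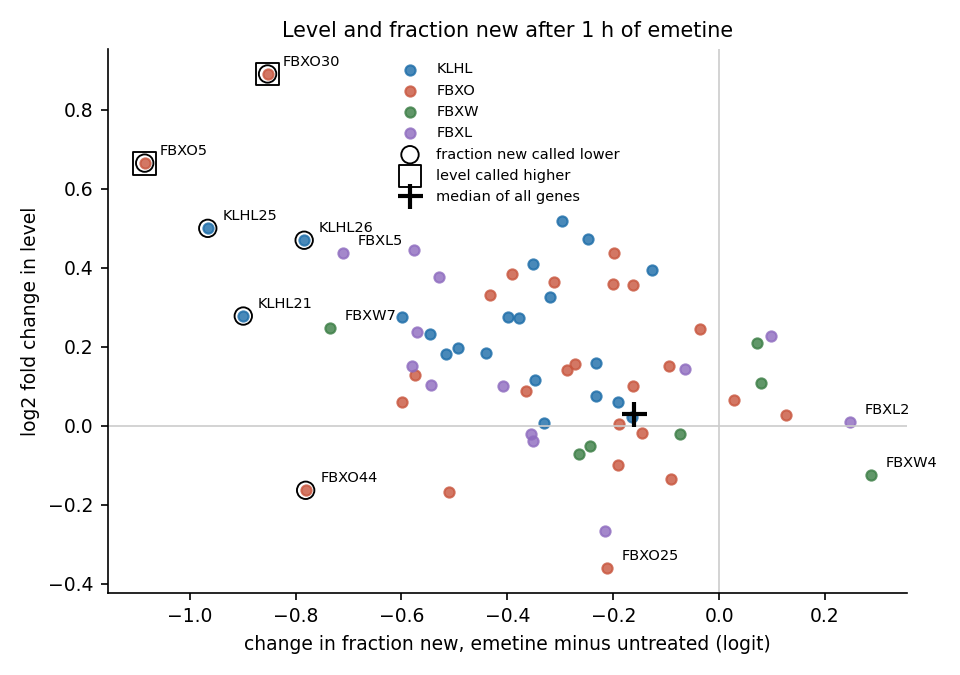
Log2 fold change in level (vertical axis) against the change in logit fraction new (horizontal axis), emetine against untreated, for 66 adaptor genes. Circles mark the 6 genes called lower in fraction new, squares the 2 called higher in level, and the cross the medians over all genes (0.030 and -0.16). Most adaptors lie above and to the left of the cross.

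Both calls came together in FBXO5 and FBXO30, which makes 2 of 66 adaptors (3.03%) against 1.37% of all genes with a higher level and a lower fraction new. FBXO5 had 41.6, 46.6 and 46.5 CPM in untreated cells and 66.4, 67.8 and 79.3 CPM with emetine. All emetine libraries were above all untreated ones, and the log2 fold change was 0.66 ± 0.10 (SE, edgeR, adjusted p = 0.0155). Its fraction new was 64.8%, 76.8% and 78.2% in untreated cells, the highest of the adaptors, and 47.2%, 47.7% and 50.8% with emetine. Again the groups did not overlap (change in logit -1.09 ± 0.25, limma, adjusted p = 0.00315). Unlabeled FBXO5 reads went from 14.6, 10.8 and 10.1 CPM to 35.1, 35.5 and 39.0 CPM, a log2 fold change of 1.6 (adjusted p = 0.000797). Labeled reads, at 27.0, 35.8 and 36.4 CPM and then 31.4, 32.3 and 40.3 CPM, overlapped (0.073, adjusted p = 0.940). The rise in FBXO5 thus lay in the part estimated as unlabeled. Leaving out 1 untreated library at a time ended the level call (adjusted p up to 0.118), with log2 fold changes of 0.61 to 0.69. In these fits 0.0294% to 0.132% of all genes were called higher, against 2.64% with all 6 libraries.

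FBXO30, studied in muscle wasting as MUSA1, had 15.7, 18.5 and 18.3 CPM in untreated cells and 26.6, 27.5 and 43.5 CPM with emetine. The groups did not overlap, and the highest value came from emetine replicate 3. The log2 fold change was 0.89 ± 0.19 (edgeR, adjusted p = 0.0471), and without that library it was 0.63 (adjusted p = 0.000522). The call was lost when any untreated library or emetine replicate 1 was left out (adjusted p up to 0.231), with log2 fold changes of 0.82 to 1.02. In these fits 0.0294% to 0.977% of all genes were called higher, against 2.64% with all 6 libraries. FBXO30 has a long transcript (9051 bases), and with a trend on length and GC content removed the log2 fold change was 0.57 (adjusted p = 0.01). The fraction new was 31.8%, 38.8% and 46.2%, then 21.0%, 21.7% and 21.0% (change in logit -0.85 ± 0.22, adjusted p = 0.00791). Unlabeled reads were 10.7, 11.3 and 9.86 CPM and rose to 21.0, 21.5 and 34.4 CPM (log2 fold change 1.20, adjusted p = 0.00688). Labeled reads, 5.00 to 8.45 CPM without and 5.57 to 9.14 CPM with emetine, overlapped. In the pair without s4U the direction was the opposite: 24.5 CPM in the untreated and 19.5 CPM in the emetine library, a log2 ratio of -0.33 (95% counting interval -0.49 to -0.16).

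KLHL25, which in a CUL3 ligase acts on the translation repressor 4E-BP1, had the smallest p for fraction new. Its fraction new was 28.8%, 40.4% and 51.3% in untreated cells and 19.6%, 20.1% and 20.7% with emetine. The emetine libraries were close together and below all untreated ones, which spread widely (change in logit -0.97 ± 0.22, limma, adjusted p = 0.00303). Its level, 16.9, 19.2 and 14.8 CPM and then 21.6, 22.8 and 27.9 CPM, did not overlap either, with a log2 fold change of 0.50 ± 0.14 (edgeR, adjusted p = 0.112). Unlabeled reads were higher by 0.90 on the log2 scale (adjusted p = 0.0287). In the pair without s4U, KLHL25 had 15.9 and 22.6 CPM, a log2 ratio of 0.51 (0.33 to 0.70).

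KLHL21 and KLHL26 followed the same course. KLHL21 had a fraction new of 43.2%, 53.6% and 60.7% in untreated cells and of 28.7%, 32.4% and 32.2% with emetine (change in logit -0.90 ± 0.23, limma, adjusted p = 0.00823). Its unlabeled reads, 41.2, 40.6 and 33.2 CPM and then 66.3, 65.8 and 72.0 CPM, rose by 0.82 on the log2 scale (adjusted p = 0.00367). KLHL26 had a fraction new of 47.4%, 46.8% and 56.3%, then 30.2%, 30.2% and 34.2% (-0.78 ± 0.22, adjusted p = 0.0233). In both genes the groups did not overlap. Levels were higher by 0.28 for KLHL21 (edgeR, adjusted p = 0.185) and 0.47 for KLHL26 (adjusted p = 0.0791) on the log2 scale, short of the threshold. The pair without s4U gave log2 ratios of 0.24 (0.15 to 0.32) and 0.62 (0.43 to 0.81).

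FBXO44 was the exception among the 6, since its unlabeled reads did not rise. Labeled FBXO44 reads were 2.76, 4.49 and 4.38 CPM in untreated cells and 1.58, 2.23 and 1.27 CPM with emetine. They fell by 0.99 on the log2 scale (limma, adjusted p = 0.0342), the only call among labeled reads of adaptors (1.52%, against 0.632% of all genes). None was called higher (against 0.26%), nor was any higher at an unadjusted p under 0.05 (against 1.64%). Unlabeled FBXO44 reads overlapped between the groups (log2 fold change -0.071, adjusted p = 0.716). The fraction new went from 8.92%, 13.2% and 14.0% to 5.02%, 7.58% and 5.12% (-0.78 ± 0.22, adjusted p = 0.0195). With a half-life of 5.63 ± 1.56 h, FBXO44 was also the only one of the 6 above 2 h. The call on labeled reads was lost when any library but untreated replicate 1 was left out (adjusted p up to 0.710). In those fits 0.0186% to 0.145% of all genes were called lower in labeled reads, against 0.632% with all 6 libraries.

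**Figure D4:**
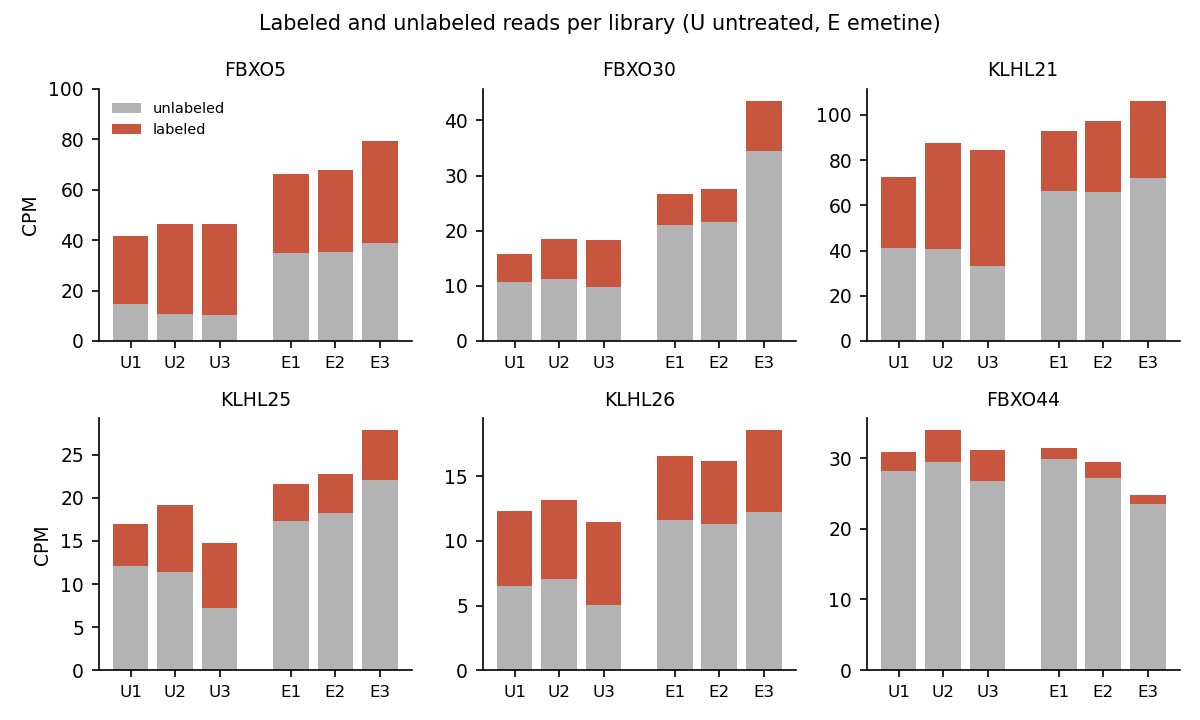
Estimated labeled (red) and unlabeled (grey) reads in CPM, stacked, for the 6 adaptors with a lower fraction new. Bars are 3 untreated (U1 to U3) and 3 emetine (E1 to E3) libraries. The grey part is higher in every emetine library than in every untreated one for FBXO5, FBXO30, KLHL21, KLHL25 and KLHL26, and overlaps for FBXO44. The vertical axes differ between genes and start at 0.

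Unlabeled reads, the estimated pool from before emetine was added, held the most calls. In 10 of 66 adaptors they were higher (15.2%, against 7.3% of all genes, limma on log2 CPM with 0.5 added). No adaptor was called lower (against 0.0929%), and 1 (1.52%) was lower at an unadjusted p under 0.05, against 7.06% of all genes. Besides the 5 above, the adaptors called higher were FBXL5, FBXO42, FBXO34, KLHL11 and FBXL12. For FBXL5, unlabeled reads went from 19.0, 14.8 and 12.4 CPM to 23.6, 25.8 and 26.4 CPM, without overlap (log2 fold change 0.71, adjusted p = 0.0301). Its fraction new, 22.3%, 37.7% and 44.9% and then 15.3%, 22.6% and 24.1%, overlapped (adjusted p = 0.0610). The other genes had smaller changes: 0.45 for FBXO42, which acts on p53, 0.59 for FBXO34, 0.39 for KLHL11 and 0.47 for FBXL12, with adjusted p-values of 0.0359 to 0.0407. The count depended on the libraries, and without emetine replicate 3 it was 17 (25.8%, against 13.4% of all genes). It was 4 (6.06%, against 2.69%) and 3 (4.55%, against 2.55%) without untreated replicates 2 and 3, and 6 (9.09%, against 5.3%) without emetine replicate 1. FBXO5, KLHL21 and KLHL26 were called whichever single library was left out.

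FBXW7 lay just outside the threshold in fraction new. It had 14.7 CPM in every untreated library and 16.4, 16.2 and 19.9 CPM with emetine, without overlap (log2 fold change 0.25 ± 0.12, edgeR, adjusted p = 0.257). Its fraction new was 41.4%, 61.8% and 63.7%, then 37.3%, 41.4% and 34.4%, so that the lowest untreated library met the highest emetine one (change in logit -0.74 ± 0.24, limma, adjusted p = 0.0539). KLHL15 had 38.5, 37.1 and 42.9 CPM and then 49.5, 41.4 and 73.6 CPM, which overlapped (0.47 ± 0.19, adjusted p = 0.206). For KLHL15 emetine replicate 3 was far above the other emetine libraries. The other adaptors with textbook roles, FBXW11, FBXO11, FBXO32, KLHL9, KLHL12, KLHL13, KLHL20, KLHL22 and KLHL24, had log2 fold changes between 0.0070 (KLHL13) and 0.52 (KLHL20), with adjusted p-values of 0.164 (KLHL20) or more.

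The changes were larger in short-lived adaptors. Across the 66 adaptors, Spearman's rho of untreated half-life was -0.763 with the change in unlabeled reads, -0.610 with the change in level and 0.540 with the change in fraction new. Over 10416 genes the values were -0.737, -0.644 and 0.548. The coefficients of the adaptors were thus near those of all genes, and half-life and the changes share the untreated libraries. By gene structure, the 19 adaptors with 1 to 4 coding exons had a median change in logit fraction new of -0.49, against -0.35 and -0.19 in the classes with 5 to 9 and 10 or more. The medians over all genes in these classes were -0.28, -0.14 and -0.13. Of the 6 genes called lower, none had more than 5 coding exons, a limit set after the values were seen. The share of all genes at or below this limit is not given here.

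The first ATTTA motif in the 3′ UTR, the core of AU-rich elements that speed decay of many unstable mRNAs, is shown for 5 of the 6 genes with a lower fraction new, to let their surroundings be compared. The motif is in capitals, with 8 bases on each side, read 5′ to 3′ on the sense strand of the GENCODE 44 transcript (GRCh38).
FBXO5, chr6:152970974-152970994, minus strand: tttttacaATTTAatgagaaa
FBXO30, chr6:145799995-145800015, minus strand: ctagctaaATTTAttgtcact
KLHL21, chr1:6592261-6592281, minus strand: aagagggcATTTAgactgcat
KLHL26, chr19:18670463-18670483, plus strand: ttccctttATTTAataaaaat
FBXO44, chr1:11662645-11662665, plus strand: gccgaagcATTTAgaatggtg
The motif, searched on the sense strand only and with overlaps counted, was in 66 of 80 adaptor 3′ UTRs (82.5%) and in 73.8% of all 12724. Adaptor 3′ UTRs were longer (median 1963 bases, against 1361.5), and the median number of motifs per kb was 1.93, against 1.72. The 3′ UTR of FBXO30 (6604 bases) held 28 copies, KLHL21 held 4, FBXO5 and KLHL26 held 2 each and FBXO44 held 1. The 3′ UTR of KLHL25 (1710 bases) held none, and a match is a string of letters and not a binding site.

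The pair without s4U, with 1 library a side and so without a test, gave a mixed picture. The median log2 ratio of the 81 adaptors was 0.027, against 0.0045 over all genes, and 46 of the 81 (56.8%) were above 0, against 50.8% of all genes. The 95% counting interval lay above 0 for 24 adaptors and below 0 for 15. The share of all genes with such an interval was not computed, so neither count has a background. Of the genes named above, KLHL26 (0.62), KLHL25 (0.51), FBXL12 (0.48), FBXL5 (0.41), FBXW7 (0.35), FBXO42 (0.25), KLHL21 (0.24) and FBXO5 (0.19) had intervals above 0. FBXO34 (0.043) had an interval that held 0, and KLHL11 (-0.18) and FBXO30 (-0.33) had intervals below it. For FBXO5 the ratio came from 57.1 and 65.3 CPM, and its upper bound (0.29) was under the log2 fold change of 0.66 seen with s4U.

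**Figure D5:**
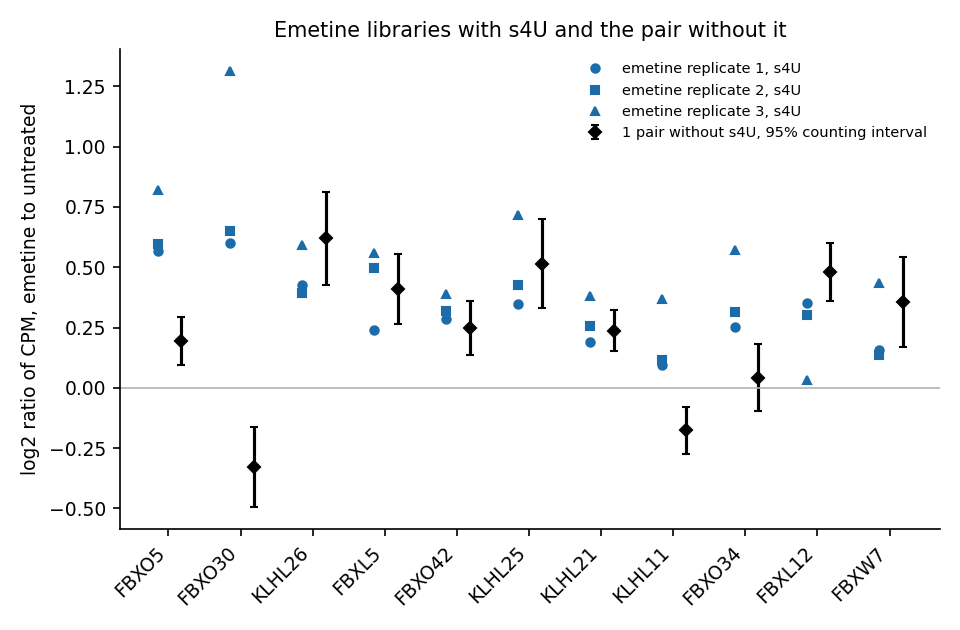
Log2 ratio of CPM, emetine to untreated, for the 10 adaptors with more unlabeled reads and for FBXW7. Blue symbols are the 3 emetine libraries with s4U against the mean of 3 untreated libraries, and black diamonds are the single pair without s4U with the 95% counting interval. FBXO30 and KLHL11 have diamonds below 0 and blue symbols above it.

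In the 2 h experiment, 61 of the adaptors were in the deposited tables: 20 KLHL, 23 FBXO, 7 FBXW and 11 FBXL genes. Of these tables only the authors' mean normalized count over the libraries was used, which gives 1 value a gene with no spread between libraries. Per kb of exon, the mean normalized count had a median of 171 for FBXO, 127 for KLHL, 103 for FBXW and 90.6 for FBXL genes. FBXO5 ranked 2 of 61 by this value (887 per kb), and FBXL5 9 (299), FBXO30 11 (273), KLHL21 24 (156), FBXW7 51 (61.1), KLHL26 56 (39.0) and KLHL25 58 (33.2). By untreated level per kb at 1 h, the same 61 genes placed FBXO5 at 10, KLHL21 at 8, FBXL5 at 29 and FBXO30 at 53. Across the 61 genes, Spearman's rho between both measures was 0.534. The experiments used different library kits, and the 2 h mean includes emetine libraries, so the ranks set levels of unlike samples side by side. FBXO44 was among the 20 adaptors tested for level at 1 h but missing from the 2 h tables.

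The partners of the adaptors, and related adaptors with other symbols, held no level call. In the lists of SCF and related subunits (CUL1, SKP1, RBX1, CUL7 and the RBX1 inhibitor GLMN), CUL3 with RBX1 and other BTB adaptors (10 genes), NEDD8 and its pathway (11), COP9 signalosome and CAND factors (11), E2 enzymes with the ligases ARIH1 and ARIH2 (9), other F-box genes (7 tested) and other BTB-Kelch genes (12 tested), no level was called in either direction by edgeR. At an unadjusted p under 0.05, 9 of the 64 distinct genes tested were higher (14.1%, against 14.9% of all genes). At the same threshold 4 were lower (6.25%, against 6.95%). DESeq2 called 1 higher, the F-box gene LMO7, and 0 lower (against 5.95% and 1.13% of all genes). CUL1 had a half-life of 6.9 h, SKP1 of 19.1 h and RBX1 of 20.7 h. Median half-lives were 9.55 h for the COP9 and CAND list and 9.15 h for the NEDD8 list, against 2.2 h for the other BTB-Kelch genes. Among these lists the fraction new fell in DCUN1D2, a factor that promotes cullin neddylation, from 31.6%, 35.6% and 39.3% to 18.4%, 23.9% and 22.2% (limma, adjusted p = 0.0363). It also fell in KBTBD6, a CUL3 adaptor, from 26.8%, 45.1% and 51.1% to 22.1%, 23.6% and 23.6% (adjusted p = 0.0191). Each was the only call among 10 tested genes of its list, and the rest of these lists held none (against 4.83% of all genes).

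Of 24 textbook substrates of these ligases, 3 had a higher level and none a lower one (edgeR, against 2.64% and 0.0436% of all genes). At an unadjusted p under 0.05, 8 were higher and 2 lower (against 14.9% and 6.95%). DESeq2 called 5 higher and 0 lower (against 5.95% and 1.13%). The median half-life of the substrates was 2.12 h. JUN, which FBXW7 recognizes, had 118, 122 and 125 CPM in untreated cells and 1010, 840 and 1270 CPM with emetine (log2 fold change 3.10, edgeR, adjusted p = 7.86e-05). MYC, also recognized by FBXW7, had 194, 184 and 194 CPM and then 353, 321 and 396 CPM (0.90, adjusted p = 0.00656). CRY2, a repressor of the circadian clock, had 20.8, 21.5 and 20.2 CPM and then 26.6, 29.4 and 30.8 CPM (0.47, adjusted p = 0.0471). In all 3 the groups did not overlap. NFE2L2, which the BTB-Kelch protein KEAP1 presents to CUL3, had a lower fraction new: 23.9%, 32.0% and 38.0%, then 16.7%, 18.4% and 18.7% (limma, adjusted p = 0.0283). It was the only fraction new call among the 22 substrates tested, against 4.83% of all genes called lower.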

How the data were processed

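TL-seq libraries were grouped by the treatment, time and replicate on their labels. The authors removed adapters with cutadapt, aligned them against hg38 using hisat-3n, which allows T-to-C changes, and counted conversions per read with bam2bakR, and the deposited 1 h table holds raw counts of reads per library, gene and conversion number. The deposited 2 h signal values are the authors' mean of counts divided by spike-in size factors. Their fold changes and p-values were not used.

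Counts were summed per gene and compared with edgeR 4.0.16 (TMM, quasi-likelihood) over genes with more than 100 counts. Fraction new was the weight of the labeled component in a binomial mixture, and its logit was compared with limma 3.58.1 (trend, robust) over genes that reached 100 reads in every library. Labeled and unlabeled CPM were compared with limma after 0.5 was added. Adjusted p-values (Benjamini-Hochberg) run over all genes. Half-life is −ln(2) × 1 h / ln(1 − fraction new). bakR was not run. Sequences and lengths came from GENCODE 44.

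The genes and lists were chosen with earlier results of these data known. Named are the genes called in any test, the 5 smallest p-values in each direction for level and fraction new, the extremes of level and half-life per family, the closest pair per family and members with textbook roles. Pairs were matched by coding sequence, since no protein table was used. Counting intervals cover counting error only. Steps were tested on simulated data. Alternatives were DESeq2 1.42.0, RLE or spike-in scaling, other filters and pseudocounts, a length and GC trend, centering, other estimates of fraction new, a replicate block, and each library left out. Values of 1 adaptor are not reported here.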

Additional observations from a re-analysis of the deposited data

Results flagged for a closer look

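In FBXO30, FBXO21 and FBXO28 every emetine library with s4U lay above every untreated one, while the single pair without s4U went the other way with a counting interval below 0. The log2 ratios without s4U were -0.33 for FBXO30, -0.20 for FBXO21 and -0.12 for FBXO28. They were picked from the 25 adaptors whose emetine libraries with s4U all lay above the untreated ones (30.9%, against 19.5% of all genes). The share of all genes that met both conditions was not computed, so the pattern cannot be called particular to these genes. With 1 pair without s4U, the difference between the experiments was not tested.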

How the results depend on the processing

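Calls were few and moved with the settings. For level, 2 adaptors higher and 0 lower became 6 and 1 with DESeq2 (7.41% and 1.23%, against 5.95% and 1.13% of all genes). With RLE scaling they became 1 and 0 (1.23% and 0%, against 2.03% and 0.0436%). After a trend on length and GC content was removed they were 4 and 2 (4.94% and 2.47%, against 5.62% and 5.24%). With spike-in scaling they were 0 and 0 (against 0.436% and 0%). That scaling moved the median log2 change of all genes from 0.030 to 0.71. Spike-in reads were uneven between the emetine libraries (126672, 325443 and 120560 in replicates 1 to 3), against 236732, 213771 and 199699 in the untreated ones. Whether the shift reflects RNA amount was not tested. Under that scaling FBXL16 (0.31), FBXL8 (0.44), FBXO17 (0.50), FBXO25 (0.32) and FBXO44 (0.51) were above 0, all below the shifted median. With the trend removed, the adaptor median was 0.033 and that of all genes -0.047. For fraction new, 6 lower became 3 with at least 500 reads (7.14%, against 3.22% of all genes) and 13 after centering (19.7%, against 6.95%). Under the other estimates the count was 4 to 8 (5.63% to 12.1%, against 2.53% to 5.74%). With at least 500 reads, labeled reads gave 0 lower (against 0.822% of all genes) and unlabeled reads 2 higher (4.76%, against 3.19%). The 2 adaptors with both calls became 4 (DESeq2), 1 (RLE), 0 (spike-in) and 1 (at least 500 reads). For both calls the share of all genes was computed in the main setting only (1.37%). Without 1 library, level counts ran from 0 to 10 higher (0.0294% to 10.1% of all genes) and 0 to 1 lower (0% to 3.87%). Counts ran from 0 to 34 for fraction new lower (0.886% to 23.4%) and 0 to 13 for labeled reads lower (0.0186% to 16.1%). Unlabeled reads gave 3 to 17 higher (2.55% to 13.4%), and both calls were held by 0 to 2. The highest shares of all genes came from the same fits as the highest adaptor counts. The highest labeled count, 13, and fraction new count, 34, came without untreated replicate 1, and the highest level counts without emetine replicate 3, where the genes with both calls were FBXO5 and KLHL25. Both calls were held by 0 adaptors without any other single library. The estimates above 0 turned sign without a library for FBXL17 (-0.14 to 0.42), FBXO22 (-0.11 to 0.31) and FBXW11 (-0.097 to 0.17).

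Replicate numbers did not pair the libraries (correlations of deviations from -0.18 to 0.0696 for level and 0.00251 to 0.056 for fraction new). With a replicate block, level had 0 adaptors higher (against 0.544% of all genes) and unlabeled reads 3 higher (4.55%, against 3.25%). Fraction new had 8 lower (12.1%, against 6.01%), labeled reads 1 lower (1.52%, against 0.66%), and both calls were held by 0. The median level per kb was 4.66 CPM with the longest transcript as length, and 3.46 to 3.55 CPM without 1 untreated library. Half-life medians moved by less than the spread between libraries. The cause of these changes was not tested. Depth limits the adaptors below 100 reads, for which no fraction new was estimated.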
